A study of Mus musculus with 4 samples.

Results

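In mouse trachea and oviduct, 10 genes of the cilia and flagella associated protein family that are tied to flagellar motility were followed: Cfap43, Cfap44, Cfap57, Cfap61, Cfap65, Cfap69, Cfap70, Cfap74, Cfap100 and Cfap206. They were chosen by name, through current or older symbols, with earlier results of these data known. Shares over all genes set beside them are therefore a description and not a test of the list. All 10 of 10 were found among the 30571 genes that the array table could be resolved to, each with 1 probe set. The study took whole trachea from male mice of 39 days and whole oviduct from female mice of 65 days, of a mixed C57BL/6 and 129 background, either wild type (WT) or labelled null for Gemc1. The mice had no treatment, and tissue was frozen after dissection without culture. How many mice each array stands for was not stated. There were 4 groups with 1 Affymetrix array each, so a difference within a tissue has no replicate, no error and no test, and precision is limited by array number. The series asks, per its title, how GEMC1 acts on the transcription programme of multiciliated cells. Which part of Gemc1 was deleted was not stated in the labels.

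A motile cilium beats because dynein arms slide the outer doublet microtubules of its axoneme against each other, while radial spokes and the central pair of microtubules pass on the signals that coordinate them. The 10 proteins belong to the spokes, to the central pair or to parts that anchor and regulate the inner dynein arms, and none is a dynein heavy chain. Men with mutations in several of these genes have malformed, immotile sperm flagella. Trachea and oviduct carry multiciliated cells with axonemes of the same basic plan, and GEMC1, a geminin relative, is known to act at the top of the gene programme that makes such cells.

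The promoters were read first, because RFX factors and the forkhead factor FOXJ1 are textbook regulators of genes for motile cilia. RefSeq promoter windows (assembly GRCm38.p6, 250 bases before to 50 bases after a gene start) were found for 9 of the 10 genes, all but Cfap65. The short RFX site GTTGCC, on either strand, was in the windows of 3 of 9 genes, against 14.1% of 27025 genes with a window. The forkhead core GTAAACA was in 1 of 9, against 4.05%, and the degenerate X-box, the longer RFX motif, in 6 of 9, against 37.9%. Over the bases before the start alone, GTTGCC was in 2 of 9 (11.8% of all genes), GTAAACA in 1 (3.54%) and the X-box in 4 (32.7%). A looser short site, GTTGCNA, was chosen after these letters had been seen and overlaps both other RFX forms. It was in 7 of 9 full windows, against 11.9% of all genes. Between 60 bases before and 20 bases after the start, a stretch also chosen afterwards, it was in 6 of 9, against 3.99%. That stretch is shown for these 6 genes and for Cfap43, which holds the forkhead core there, 5′ to 3′ on the strand of the gene, from base -60 to base 20 of the start. Capitals mark GTTGCNA or GTAAACA on either strand.
Cfap43, chr19:47837342-47837421, minus strand: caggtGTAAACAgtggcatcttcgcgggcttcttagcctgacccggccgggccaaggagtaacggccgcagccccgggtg
Cfap44, chr16:44394739-44394818, plus strand: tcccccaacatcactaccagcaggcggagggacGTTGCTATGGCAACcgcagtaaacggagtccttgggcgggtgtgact
Cfap57, chr4:118620766-118620845, minus strand: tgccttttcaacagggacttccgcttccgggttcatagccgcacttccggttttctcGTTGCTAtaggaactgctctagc
Cfap61, chr2:145934724-145934803, plus strand: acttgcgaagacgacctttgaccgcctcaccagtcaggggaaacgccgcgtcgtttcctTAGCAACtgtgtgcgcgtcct
Cfap69, chr5:5664213-5664292, minus strand: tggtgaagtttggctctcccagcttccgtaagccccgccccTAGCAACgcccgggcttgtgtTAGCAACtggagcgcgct
Cfap70, chr14:20452206-20452285, minus strand: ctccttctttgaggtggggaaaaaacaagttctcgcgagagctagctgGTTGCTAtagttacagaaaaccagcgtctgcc
Cfap74, chr4:155409180-155409259, plus strand: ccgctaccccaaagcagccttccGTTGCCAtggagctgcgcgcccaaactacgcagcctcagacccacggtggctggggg

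In Cfap44 a GTTGCNA match on each strand abutted to form the X-box match GTTGCTATGGCAAC, from base -27 to base -14. In Cfap57 and Cfap61 an X-box match spanned the start itself, and in Cfap69 GTTGCNA was repeated, once before and once after the start. Cfap74 has 2 starts in the RefSeq table, and the downstream one is shown. Cfap43, Cfap100 and Cfap206 had no GTTGCNA in this stretch, and the Cfap43 stretch held the forkhead core instead. A match describes letters in a window, and its absence says nothing about the factor.

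**Figure D1:**
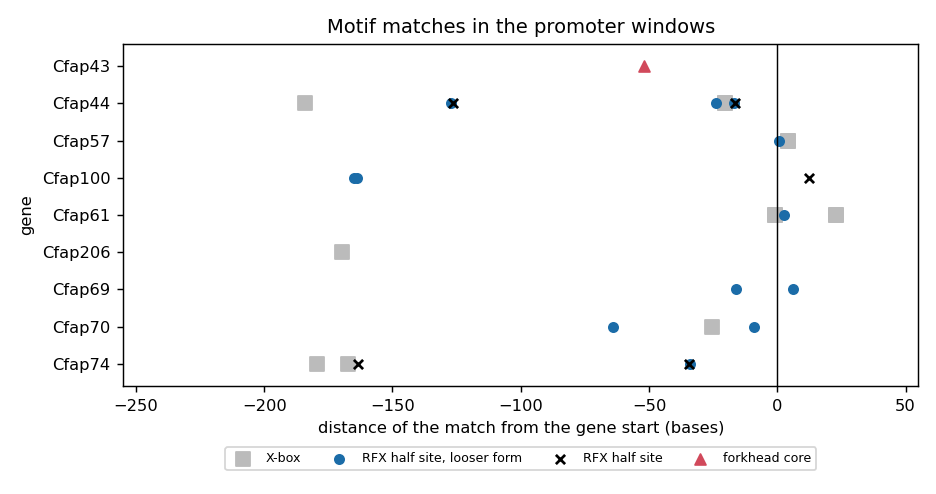
Motif matches in the RefSeq promoter windows of 9 genes (rows), placed by the distance of the match's middle from the gene start in bases (x axis, start at 0). Squares are X-box matches, circles the looser short RFX site GTTGCNA, crosses GTTGCC and the triangle the forkhead core. In 6 genes a circle lies between base -60 and base 20, and Cfap44, Cfap70 and Cfap100 have circles farther before the start.

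Levels are log2 RMA signals, the background-corrected and quantile-normalized brightness of a probe set, and every difference is the null-labelled array minus its WT counterpart in that tissue. Background is given by the median of 5222 negative-control probe sets, which was 5.98 (WT) and 5.74 (null-labelled) in trachea and 5.77 and 5.79 in oviduct. The targeted gene, Gmnc in current nomenclature, read 5.90 and 4.63 in trachea (WT first) and 6.11 and 8.86 in oviduct. In oviduct it thus read higher on the array labelled null. As the deleted part of the gene was not stated, that reading cannot decide about the label. Arrays are called null-labelled, or null for short, and each direction rests on those labels. In trachea Gmnc did not pass the level filter given below, and both readings lay under the negative-control median. On the WT arrays the summed signals of secretory markers matched the tissue labels. There, 10 airway secretory markers summed to 46515 in trachea and 2463 in oviduct (linear signal), and 6 oviduct secretory markers to 1713 and 9708. Gene by gene, 0 of the 10 airway markers and 4 of the 6 oviduct markers read higher in WT oviduct. All 6 oviduct markers differed by at least 2-fold between the WT tissues, so the rest of them went against the label. On the null arrays the airway sums were 4076 in trachea and 4298 in oviduct, and did not separate the tissues. The oviduct secretory sums on those null arrays were 573 and 11826. In whole tissue, fewer ciliated cells and less RNA per ciliated cell cannot be told apart. Markers of other cell types, given below, also differed between the genotypes, most widely in trachea, and their part was not tested.

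All 10 genes were at least 2-fold lower on the null-labelled array, in trachea and in oviduct. In trachea 7.70% of 20065 genes past a level filter were at least 2-fold lower, in oviduct 2.74% of 19611, and in both tissues 1.30% of 18791. The shares at least 2-fold higher were 6.34%, 0.806% and 0.0692%, and none of the 10 was among them. Both WT arrays read above both null arrays for 10 of 10, against 10.8% of 20885 genes. A gene passed the filter where it reached the median probe set of its array in either genotype. All 10 passed in both tissues, 6 of them through the WT array alone in trachea and 6 in oviduct. Without the filter the shares over 30571 genes were 5.24%, 1.83% and 0.814%. At 1.5-fold all 10 counted, against 13.3% of genes in trachea, 5.23% in oviduct and 2.24% in both. At 3-fold 8 of 10 counted in trachea (4.30%), 8 in oviduct (1.36%) and 7 in both (0.708%), and at 8-fold, on measured differences, 4 in trachea (0.927%) and 5 in oviduct (0.255%). The median difference of the 10 was -2.55 in trachea and -2.60 in oviduct, beside 0.03 and 0.05 over all genes past the filter.

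**Figure D2:**
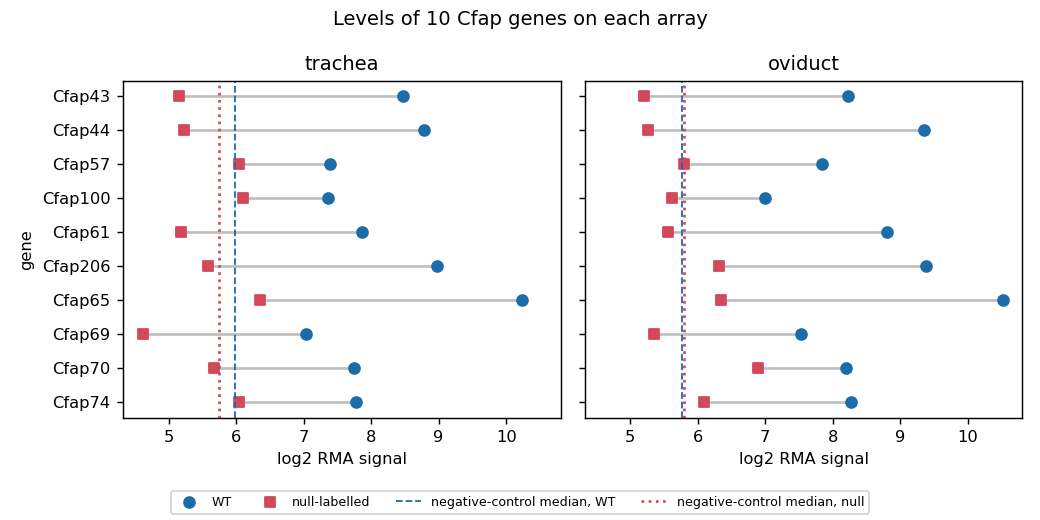
Level of each of the 10 genes (rows, grouped by structure) on each array, as log2 RMA signal (x axis), in trachea (left) and oviduct (right), with 1 array per point. Circles are WT arrays, squares null-labelled arrays, and vertical lines the arrays' negative-control medians. In each row the WT point lies to the right of the null point, and most squares lie near the vertical lines.

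Cfap43 and Cfap44 encode WD-repeat proteins of the tether that anchors the head of an inner dynein arm to the doublet. Cfap43 (NCBI gene 100048534, annotated as Wdr96) read 8.47 (WT) and 5.15 (null) in trachea, and 8.23 and 5.21 in oviduct. Both null arrays lay below their negative-control medians, so the differences of -3.31 and -3.02 are given as at least 6.61-fold lower in trachea and at least 5.41-fold lower in oviduct. Here and below, "at least" before the fold of a single gene marks one taken against the negative-control median of the null array. Cfap44 (NCBI gene 212517, annotated as Wdr52) read 8.78 and 5.23 in trachea and 9.35 and 5.26 in oviduct. It was at least 8.23-fold lower in trachea and at least 11.8-fold lower in oviduct, with measured differences of -3.56 and -4.09. For both tether genes the 2 null arrays read almost alike, 0.05 apart for Cfap43 and 0.03 for Cfap44.

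Cfap57 and Cfap100 also belong to the inner arm region. Cfap57, a WD-repeat protein needed for a subset of inner arm dyneins, read 7.40 and 6.04 in trachea and 7.85 and 5.80 in oviduct (NCBI gene 68625, annotated as Wdr65). Its null readings were 0.29 above the negative-control median in trachea and 0.006 in oviduct, and it was 2.56-fold lower in trachea and 4.14-fold lower in oviduct. Those null readings exceeded only 56.4% and 50.2% of the negative controls, so background limits both folds. Cfap100, which with Cfap73 forms a complex that modifies inner arm activity, read 7.36 and 6.10 in trachea and 7.001 and 5.61 in oviduct (NCBI gene 243538, annotated as Ccdc37). It was 2.39-fold lower in trachea, where its null reading exceeded only 58.0% of the negative controls, and at least 2.31-fold lower in oviduct. Its mean difference over both tissues, -1.32, was the smallest in size of the 10. Its partner Cfap73, named after its values were seen, differed by -0.60 and -0.53, under 2-fold in each tissue.

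At the radial spokes, Cfap61 is a subunit of the calmodulin- and spoke-associated complex, and Cfap206 lies at a spoke base and helps dock an inner arm dynein. Cfap61 (NCBI gene 78774) read 7.86 and 5.18 in trachea and 8.80 and 5.56 in oviduct. It was at least 4.34-fold lower in trachea and at least 8.03-fold lower in oviduct. Cfap206 (NCBI gene 69329) read 8.97 and 5.59 in trachea and 9.38 and 6.31 in oviduct, which was at least 9.37-fold lower in trachea and 8.41-fold lower in oviduct. In oviduct Cfap206 still read 0.52 above the negative-control median on the null array, while Cfap61 lay 0.23 below it. That Cfap206 reading exceeded only 60.8% of the negative controls.

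Cfap65, Cfap69, Cfap70 and Cfap74 belong to the projections of the central pair. Cfap65 (NCBI gene 241116, annotated as Ccdc108) read 10.24 and 6.36 in trachea and 10.52 and 6.35 in oviduct. It was 14.7-fold lower in trachea and 18.0-fold lower in oviduct as measured, with null readings 0.62 and 0.56 above the negative-control medians. Those null readings exceeded only 64.2% and 61.7% of the negative controls, so background limits these folds too. Of the 10 it had the most negative difference in both tissues, and 61 of 20065 genes in trachea and 12 of 19611 in oviduct had a lower one. Cfap74 (NCBI gene 544678) read 7.78 and 6.05 in trachea and 8.27 and 6.10 in oviduct, 3.32-fold and 4.51-fold lower. Its null readings were also above the negative-control medians, but exceeded only 56.5% and 56.6% of the negative controls.

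Cfap69, which olfactory cilia use too, read 7.04 and 4.62 in trachea and 7.53 and 5.35 in oviduct (NCBI gene 207686). Its WT trachea reading was 1.05 above background, so the measured difference of -2.42 shrank to a bound of at least 2.45-fold lower. In oviduct it was at least 3.33-fold lower. Cfap70, a protein with tetratricopeptide repeats, read 7.75 and 5.67 in trachea and 8.20 and 6.90 in oviduct (NCBI gene 76670, annotated as Ttc18). It was at least 4.01-fold lower in trachea and 2.47-fold lower in oviduct, where its null reading was 1.10 above the negative-control median, the highest such value among the 10 on either null array.

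**Figure D3:**
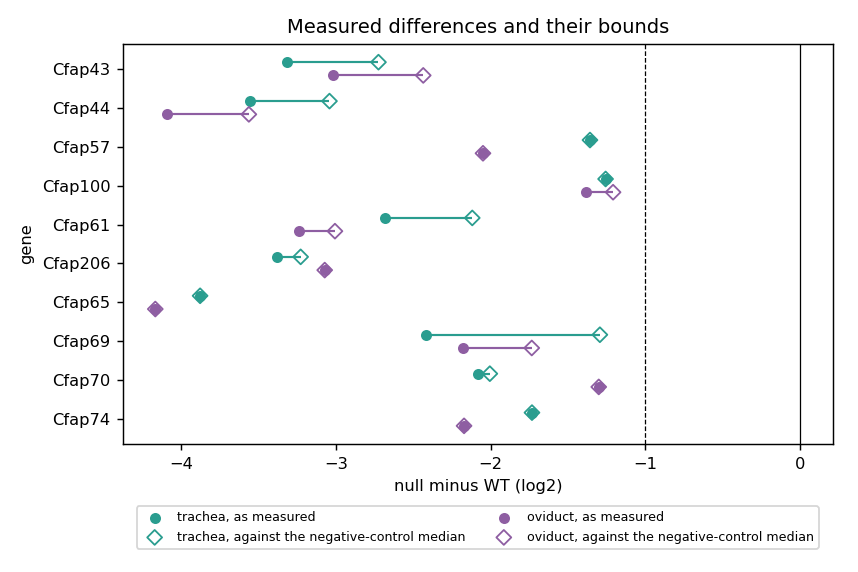
Difference null minus WT in log2 units (x axis) for each of the 10 genes (rows) in trachea (green) and oviduct (purple). Filled circles are the measured differences and open diamonds the differences with readings below an array's negative-control median raised to it. The dashed line marks 2-fold. All 20 diamonds lie at or below -1.21, beyond 2-fold.

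Background thus limited how far the fall could be measured. The null array read under its negative-control median for 6 of 10 genes in trachea and 5 of 10 in oviduct, against 0 of 10 on either WT array. Across the 10 genes the null readings exceeded between 27.3% and 64.2% of the negative controls in trachea and between 37.6% and 73.0% in oviduct, while the WT readings exceeded 73.2% to 98.4% and 75.9% to 98.7%. With such readings raised to the negative-control median, the median difference was -2.06 in trachea and -2.30 in oviduct, and all 10 genes stayed past 2-fold in each tissue.

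The genes kept a similar order of differences in the 2 tissues, which came from different mice and shared no array. Across the 10 genes the differences correlated at Spearman rho = 0.89 and Pearson r = 0.88. Genes are not independent replicates, and the points share the probe sets and the background floor. As measured, the difference was more negative in oviduct for 6 genes and in trachea for 4. The oviduct difference minus the trachea difference ran from -0.69 (Cfap57) to 0.78 (Cfap70). With readings raised to the negative-control median, Cfap69 (-1.29 in trachea, -1.73 in oviduct) and Cfap100 (-1.26 and -1.21) changed sides. No residual degree of freedom is left to test such differences between tissues.

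**Figure D4:**
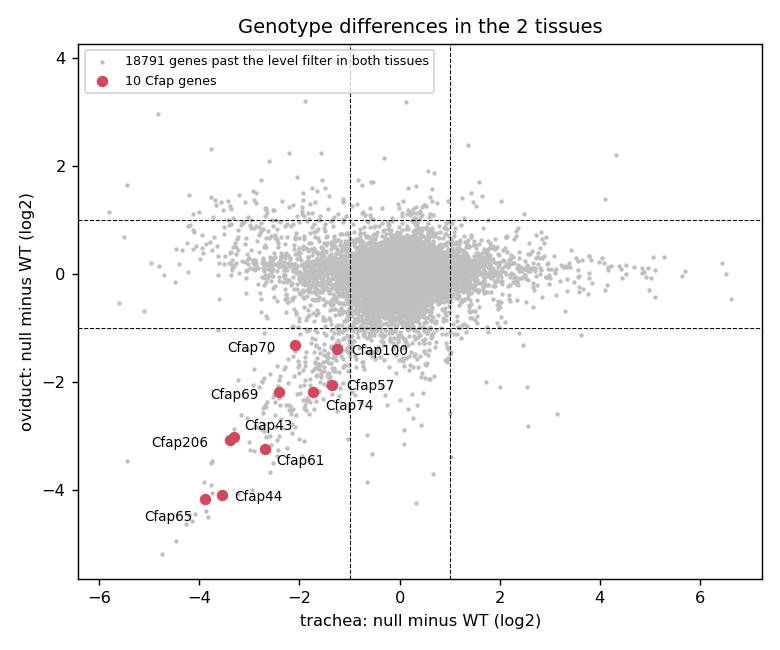
Difference null minus WT in trachea (x axis) against oviduct (y axis), in log2 units, for 18791 genes past the level filter in both tissues (grey) and the 10 genes (red, labelled). Dashed lines mark 2-fold. The 10 red points lie in the lower left, where 1.30% of the genes fall.

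A limma fit of the 4 arrays with a tissue block asked for a genotype difference shared by trachea and oviduct, taking the disagreement between tissues as its error (1 residual and 1.77 prior degrees of freedom). Cfap65 had an estimate of -4.02 (SE 0.171), Cfap44 of -3.82 (SE 0.218), Cfap206 of -3.23 (SE 0.174) and Cfap43 of -3.17 (SE 0.172), each with a limma adjusted p of 0.507. The other estimates were -2.96 (SE 0.222) for Cfap61, -2.30 (SE 0.164) for Cfap69, -1.95 (SE 0.198) for Cfap74, -1.70 (SE 0.255) for Cfap57, -1.69 (SE 0.277) for Cfap70 and -1.32 (SE 0.153) for Cfap100. Their limma adjusted p-values lay between 0.517 and 0.829. After Benjamini-Hochberg adjustment over 20885 genes, 0 of the 10 passed 0.05 in limma, as did 0 genes in all (0.00%). At an unadjusted limma p under 0.05 there were 10 of the 10, all lower, with 562 lower genes in all (2.69%) and 168 higher (0.804%). The SEs of the genes below background are limited by it as well.

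Between WT trachea and WT oviduct these genes differed by less than 2-fold. In 8 of 10 the WT oviduct array read higher, against 52.3% of 18791 genes, and none of the 10 reached 2-fold in either direction (3.34% of genes were at least 2-fold higher and 5.11% at least 2-fold lower). Cfap61 had the largest difference, 1.91-fold higher in WT oviduct. Cfap100 and Cfap43 were the exceptions, 1.28-fold and 1.18-fold higher in WT trachea. The median of the 10, oviduct minus trachea, was 0.45 on the log2 scale, beside 0.37 for 10 markers of multiciliated cells and 0.02 over all genes. The 2 tissues also differed in sex and age, and no replicate was there to set an error.

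Many genes for axonemal partners of these proteins were lower on the null arrays as well. Counts are of genes at least 2-fold lower among all that were measured as 1 gene, with or without the level filter. Over all 30571 genes without the filter, that share was 5.24% in trachea, 1.83% in oviduct and 0.814% in both. Differences are as measured, trachea first, and some genes stand in more than 1 list. Null readings lay below the negative-control median for 7 of 9 central pair genes in trachea and 6 in oviduct, and for 5 and 3 of the 7 single-headed arm genes, so these differences are limited by background too. Counts with readings under an array's negative-control median raised to it follow where they differ, a comparison added after the data were seen. Of 9 central pair genes, 9 were lower in trachea and 9 in oviduct (medians -2.49 and -2.36), and 6 and 8 with raised readings. Among them were Hydin at -3.57 and -4.13, Spag6l at -2.73 and -2.58, Cfap54 at -2.72 and -2.48 and Spef2 at -2.69 and -2.43, all proteins of central pair projections or their bridge. Of 7 genes for single-headed inner arm dyneins and their light chain, 7 were lower in each tissue (medians -2.23 and -1.72), led by the heavy chains Dnah6 at -4.27 and -4.62, Dnah12 at -4.20 and -4.46 and Dnah3 at -3.92 and -3.84. Dnah7c followed at -2.23 and -1.56, and its probe set may share sequence with close copies. Of 5 genes for the tethered inner arm and the modifier complex, 4 were lower in each tissue: the intermediate chain genes Wdr63 (-2.59 and -3.0) and Wdr78 (-2.11 and -1.89), and the heavy chains Dnah2 (-1.69 and -1.63) and Dnah10 (-1.62 and -1.75).

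Among 12 spoke genes, 7 were lower in trachea, 7 in oviduct and 6 in both (medians -1.20 and -1.58). Rsph4a, a spoke head protein, was at -3.74 and -4.05, Nme5 at -3.16 and -2.60, Rsph14 at -1.66 and -1.89 and Maats1, the current Cfap91 and partner of Cfap61, at -1.83 and -2.32. The other Cfap genes were more mixed. Of 26 measured, 14 were lower in trachea, 13 in oviduct and 12 in both, and 0 were at least 2-fold higher (medians -1.12 and -1.11). Null readings lay below the negative-control median for 11 of 26 in trachea and 8 in oviduct. With raised readings 9 of 26 were lower in trachea, 13 in oviduct and 8 in both. Cfap54 and Maats1 are given above, and Cfap52 was at least 3.81-fold lower in trachea and at least 5.02-fold lower in oviduct. Cfap47, a central pair gene, read only 0.42 above the negative-control median on the WT trachea array, which leaves a fall of at least 1.59-fold there, under the 2-fold threshold, and at least 3.07-fold in oviduct.

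A further list held 19 other genes linked to malformed sperm flagella, of which 10 were lower in trachea and 9 in oviduct (medians -1.01 and -0.97), and 9 in each with raised readings. Ak7, an adenylate kinase of motile cilia, was at -3.23 and -4.08, and Ttc21a, a relative of an intraflagellar transport subunit, at -2.27 and -2.43. Spef2 and Cfap47 are given above. By contrast, of 20 genes for the fibrous sheath, outer dense fibres, sperm ion channels and sperm metabolism, which are structures of sperm tails and not of cilia, none passed 2-fold in either direction (0 lower, 0 higher) in either tissue (medians 0.12 and 0.08). Cabyr, a fibrous sheath protein, was at 0.07 and 0.74, Odf3 at 0.23 and 0.32, Pgk2 at 0.34 and 0.23 and Septin12 at 0.13 and 0.31. On the WT arrays 18 of these 20 lay below the negative-control median in trachea and 10 in oviduct, so a fall could not have been measured for them.

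**Figure D5:**
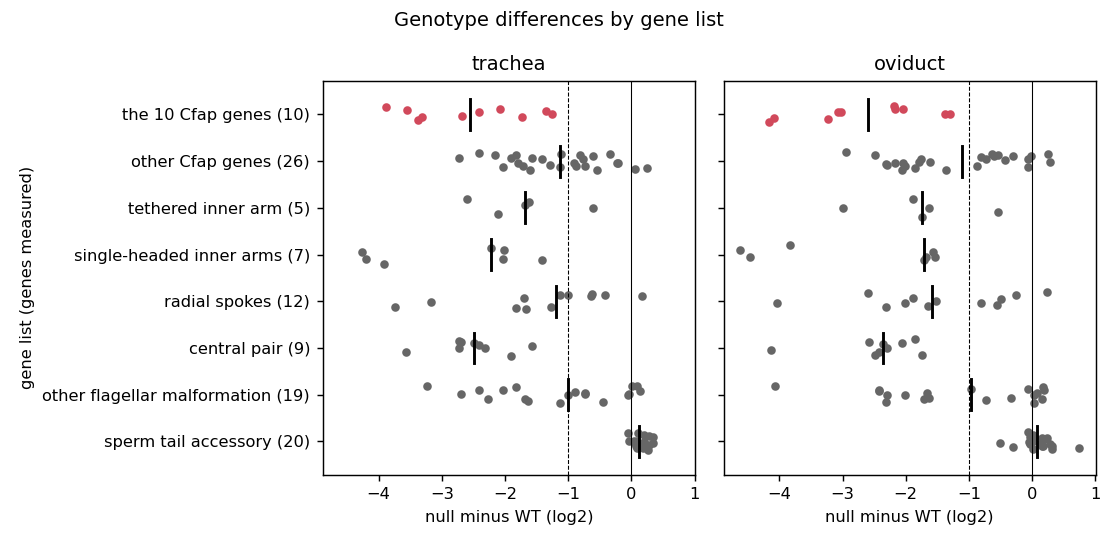
Difference null minus WT in log2 units (x axis) for each measured gene of 8 lists (rows, number of genes in brackets), in trachea (left) and oviduct (right). Points are genes, black bars list medians and the dashed line 2-fold. The 10 genes (red) all lie left of the dashed line, and the sperm tail accessory genes lie around 0.

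Markers of cell types moved with the genotype labels as well, and their part in the results above was not tested. In trachea 8 of 10 measured markers of multiciliated cells were at least 2-fold lower and 1, Mlf1, was at least 2-fold higher. The 1 marker under 2-fold there was not lower either, since only 8 of 10 had a difference below 0. In oviduct 10 of 10 were lower. With raised readings 7 and 9 of 10 were lower. Foxj1 was not measured as 1 gene. The median difference of these markers was -2.01 in trachea and -2.18 in oviduct. Their summed linear signal, Mlf1 included, went from 4199.85 to 2350.5 in trachea and from 5207 to 795 in oviduct. General epithelial markers were lower in 7 of 9 in trachea (summed signal 5593 against 2284, median -1.07) but in 0 of 9 in oviduct (8348 against 9775, median 0.08). The null trachea array was lower in 10 of 10 airway secretory markers (46515 against 4076, with Scgb3a2, Reg3g and Agr2 below the negative-control median) and 6 of 6 lymphocyte markers (5021 against 369.8). It was higher in 5 of 7 basal cell markers (2837 against 12626), 9 of 9 skeletal muscle markers (1147 against 46369) and 6 of 6 squamous markers (325 against 28246.5). In oviduct, 6 of 7 ovarian somatic markers were lower (12374 against 776), and 5 of 7 with raised readings. Of 6 oviduct secretory markers 0 passed 2-fold (9708 against 11826), and 0 had a difference below 0 (median 0.73). Of 10 airway secretory markers, 2 were at least 2-fold higher on the null oviduct array (2463 against 4298). Markers of male germ cells passed 2-fold in 0 of 5 in either tissue, with summed signals between 453 and 573 on the 4 arrays.

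In the RefSeq order, 22 protein-coding genes neighbour or overlap the 10, of which 21 were measured and 18 passed the level filter in each tissue. In oviduct 0 of the 18 passed 2-fold in either direction, against 2.74% of all genes lower and 0.806% higher. In trachea 1 was lower (7.70% of all genes), Steap2 at -1.06 beside Cfap69, and 2 were higher (6.34%), Anxa7 at 1.19 beside Cfap70 and Tmem52 at 1.49 beside Cfap74. Gabrd, a GABA receptor subunit gene that overlaps Cfap74, was at 0.38 and 0.08, and Ebna1bp2, which overlaps Cfap57, was not measured as 1 gene. Both were named after their values were seen. Crnkl1, a splicing factor gene 56 bases from Cfap61 in that assembly, was at -0.23 and -0.07 and was named after its values were seen.

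The profiles most like the median of the 10, by root mean square distance over 4 arrays after each gene was centred on its own mean, were those of Spag6l (0.108), Spef2 (0.109), Cfap54 (0.113), Ccdc39 (0.119), Vpreb3 (0.125) and Eno4 (0.129). Spag6l, Spef2 and Cfap54 are central pair genes and Ccdc39 encodes an axonemal ruler protein. Vpreb3 is known from precursor B cells, and read 8.97 and 6.49 in trachea and 9.29 and 6.69 in oviduct. Eno4, a sperm enolase, read 8.14 and 5.44 and then 8.69 and 5.92. The 10 genes themselves lay between 0.169 (Cfap69) and 0.769 (Cfap65) from their median profile.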

How the data were processed

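Total RNA of 4 tissue samples was labelled as sense-strand cDNA and hybridised to 1-colour arrays, per the labels' protocols. The authors deposited 1 value per probe set, made with RMA per the submitters' processing notes; no source used here gives its version, its settings or the array's genome build. What the authors deposited is the log2 of a log2 RMA signal: raising 2 to each cell gave at most 6 significant digits in 100% of cells (tolerance 1e-09), against 0.044% as deposited. The raised value is used as log2 signal.

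There were 72688 probe sets with 6732 controls among them. Of 65956 transcript clusters 31100 resolved to 1 gene, 1650 listed several or could not be resolved and 33206 were not listed. Names were updated through RefSeq (GRCm38.p6), and 427 genes had several probe sets, of which the one with the highest mean was used. Calls of size used a 2-fold threshold. Limma 3.58.1 in R 4.3.3 was fitted over the 20885 genes past the level filter in either tissue. A check on simulated data required only that the median estimate lie near the planted change. It did not set how often a changed gene must pass adjustment. Alternatives were other thresholds, filters, centrings, probe set rules, priors and promoter windows.

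The 10 genes and all lists were chosen with earlier results of these data known. Named genes were the 10, 6 genes of most similar profile, neighbours past 2-fold and Gmnc. Per list, apart from the cell type markers, the 4 largest mean differences and any gene at least 2-fold higher were named. Cell type markers are given mainly as counts, sums and medians, and most of those at least 2-fold higher are not named.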

Additional observations from a re-analysis of the deposited data

Results flagged for a closer look

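Gmnc, the targeted gene, differed by 2.75 in oviduct, higher on the null-labelled array, and by -1.26 in trachea. Both trachea readings lay below the negative-control median, so the trachea value gives no direction (-0.24 with readings raised to that median). Mlf1, listed as a marker of multiciliated cells, differed by 2.54 in trachea and by -2.08 in oviduct. The signs of the 2 tissues are opposite for each gene, and the difference between tissues was not tested.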

How the results depend on the processing

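The counts of the 10 genes at least 2-fold lower stayed at 10 in trachea, oviduct and both tissues with dim values raised to the negative-control median and with either centring. A 1.5-fold threshold, no level filter and the mean of all probe sets could not change these counts, since all 10 genes passed 2-fold and the filter and have 1 probe set each. They were 8, 8 and 7 at 3-fold, and 8, 9 and 8 with a level filter at percentile 75. Centring on the negative-control median shifted every trachea difference by 0.24, which left Cfap100 at -1.02. Limma gave 0 of 10 past adjustment and 10 of 10 at an unadjusted p under 0.05 with an intensity trend, a robust prior, no tissue block and no level filter; the lowest limma adjusted p among the 10 ranged from 0.178 to 0.512. With GTTGCNA as the short RFX site, an alternative chosen after the data were seen, 7 of 9 promoter windows held a match (11.9% of all genes) in place of 3 (14.1%). The labels give no replicate numbers to pair by, and the tissue block already compares genotypes within each tissue. With that block, leaving out an array leaves 0 residual degrees of freedom. A fit without the block would keep 1 and was not run.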
